A study of Bos taurus with 9 samples.

Results

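Blastocysts whose oocytes had matured in either of 2 low glucose media were taken as a single group of 6 RNA sequencing libraries and compared with 3 control libraries, which together make up all 9 libraries of the series. The deposited table lists 22127 cattle genes, and 16469 of them had enough counts to be tested. For each gene the direction of the change was also read in each low glucose medium against control, and a direction counts as shared when both have the same sign. All groups started as cumulus-oocyte complexes, oocytes still enclosed by their cumulus cells, matured for 24 h in TCM 199 with serum, pyruvate, FSH and estradiol. Glucose was at 5.5 mM for controls and at 2.75 mM for both low glucose media, 1 of which also contained BHB at 1.8 mM. BHB is read here as beta-hydroxybutyrate, a ketone body, although the labels give only the abbreviation. In vitro fertilisation and embryo culture followed the same steps for all groups, with embryos collected on day 8. A pool of 9 to 11 embryos made up each library, so differences between single embryos are averaged. Whether replicates were cultured separately is not stated in the labels, so p-values cover only the spread between these libraries, and that spread may be technical.

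Cumulus cells take up glucose and break it down by glycolysis, and they pass pyruvate and lactate to the oocyte, which uses little glucose itself. Ketone bodies are made in the liver from fatty acids when glucose is short, as happens in dairy cows after calving. The cattle blastocyst has an outer trophectoderm, which secretes interferon tau, the signal of early pregnancy in ruminants, and an inner cell mass that gives the epiblast and the hypoblast. The question was whether the medium seen by the oocyte for a day shows in the transcripts of the embryo a week later.

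Library totals ran from 55611205 to 75178898 estimated counts. Mitochondrially encoded genes took 4.75% to 5.36% of the counts in control and 2.25% to 7.93% in the 6 low glucose libraries (exact permutation test, two-sided, p = 0.964, 0.964 adjusted over 5 library measures). The number of genes with at least 10 counts was 15743 to 16094 in control and 15648 to 15826 in low glucose (exact permutation test, two-sided, p = 0.0595, adjusted 0.298). With 84 ways to choose the control libraries, the smallest p this test can give is 0.0119. Control replicate 1 had the most extreme first principal component, at -40.3 against -22.6 and -21.9 for the other control libraries and 2.08 to 29.4 for low glucose. On the second component, with 18.3% of the variance, replicate 1 of control, low glucose and low glucose with BHB lay at 33.8, 10.8 and 20.8. All replicates 2 and 3 lay at -20.9 to -4.58. What sets replicate 1 apart was not tested.

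Blastocysts from the low glucose media held less of many transcripts and more of very few. By the quasi-likelihood test of edgeR, 496 genes were lower at an adjusted p under 0.05, which is 3.01% of all genes tested, and 3 were higher, which is 0.0182%. The higher genes were C1R, DUSP8 and NFATC1. All 499 genes had the same sign in both media. That agreement is nearly fixed by the choice, since genes were called on both media together, and both comparisons use the same 3 controls. Of all 16469 tested genes, 12246 (74.4%) had the same sign, again with shared controls. The lower genes fell by a median of 1.80 on the log2 scale, or 3.48-fold, while the median over all tested genes was 0.02. Of them, 417 were lower by more than 2-fold, 200 by more than 4-fold and 30 by more than 8-fold. In 482 of the 496 every low glucose library lay below every control library in CPM, the counts scaled to library size with TMM factors, and in 14 the groups overlapped. Over all tested genes, 5.56% lay wholly lower in this way and 1.03% wholly higher. Without control replicate 1 the count of lower genes was 323, without control replicate 3 it was 301, and with only replicates 2 and 3 of each medium it was 298.

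The lower genes were mostly of modest level in control, with a median of 9.72 CPM there and 3.05 CPM in low glucose. Together they took 1.25% to 1.57% of all counts in the control libraries and 0.490% to 0.594% in the low glucose libraries. CPM is not divided by gene length, so it ranks genes by reads and not by molecules. Of 4526 genes with a mean of 1 to 10 CPM, 294 (6.50%) were lower, against 162 of 6504 (2.49%) at 10 to 100 CPM, 13 of 2040 (0.637%) above that and 27 of 3399 (0.794%) under 1 CPM. Of the lower genes, 122 belong to at least 1 of 36 gene lists, and 374 to none. The counts of lower members given for each list below stand beside 3.01% lower over all tested genes.

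**Figure D1:**
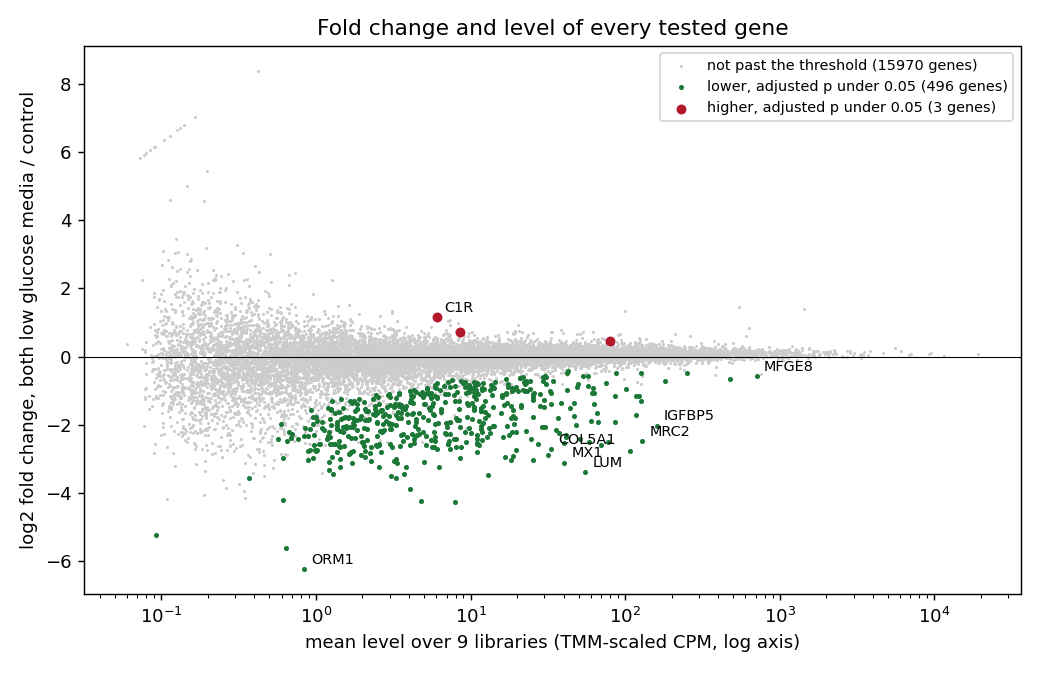
Log2 fold change of both low glucose media over control (vertical axis) against the mean TMM-scaled CPM of the 9 libraries (horizontal, log axis) for each of the 16469 tested genes. The 496 lower genes (green) gather between 1 and 100 CPM, and the 3 higher genes (red) lie near them on the other side of the line at 0.

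Genes of the interferon response were the most widely lowered list. Of 51 tested members, 32 fell and 0 rose, with a median log2 fold change of -2.10 against 0.02 for all tested genes. The median was -2.32 in low glucose and -1.89 with BHB. The summed level of the list was 1294 to 1359 CPM in control and 513 to 672 CPM in low glucose. With only replicates 2 and 3 of each medium, 20 members were lower.

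MX1, an antiviral GTPase, stood at 119, 86.1 and 89.7 CPM in the control libraries and at 6.94 to 19.9 CPM, median 9.28, in the 6 low glucose libraries. The groups lay far apart, with the highest low glucose library well under the lowest control. The log2 fold change of MX1 was -3.11 (SE 0.298, edgeR adjusted p = 0.000123). ISG15, a small protein that is attached to other proteins during the interferon response, read 42.5, 43.5 and 50.5 CPM in control and 2.62 to 13.6 CPM, median 5.69, in low glucose. Its log2 fold change was -2.74 (SE 0.397, edgeR adjusted p = 0.00125). USP18, the protease that takes ISG15 off again, read 24.7, 23.7 and 22.0 CPM against 3.53 to 9.24 CPM, median 5.40. Both genes of this cycle were thus low in all 6 libraries, and USP18 changed by -2.02 (SE 0.220, edgeR adjusted p = 0.000191).

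Effectors that act on viruses and sensors of viral RNA fell too. IFIT1, which binds foreign RNA, went from 38.6, 30.6 and 30.3 CPM in control to 0.626 to 6.79 CPM, median 2.49, or -3.48 on the log2 scale (SE 0.453, edgeR adjusted p = 0.000628). RSAD2, which encodes viperin, changed by -3.56 (SE 0.430), IFI44L by -3.49 (SE 0.539) and RTP4 by -3.45 (SE 0.620). Among the sensors of viral RNA, DDX58, which encodes RIG-I, changed by -2.10 (SE 0.208), IFIH1, which encodes MDA5, by -2.52 (SE 0.391), and DHX58, which encodes LGP2, by -1.85 (SE 0.271). All of these passed the test, with no overlap between the groups.

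Among transcription factors of the pathway, IRF9 passed the test and STAT2 and IRF7 did not. IRF9, part of the factor that answers type I interferon, read 16.6, 15.6 and 15.8 CPM in control and 6.55 to 10.0 CPM, median 8.21, in low glucose. It was lower in every low glucose library, at -0.97 on the log2 scale (SE 0.156, edgeR adjusted p = 0.00259). STAT2, which acts together with IRF9, read 27.4, 29.5 and 30.6 CPM against 27.3 to 31.9 CPM, and IRF7, which switches on interferon genes, read 63.1, 68.1 and 69.0 CPM against 60.3 to 102 CPM. Neither passed, with 95% intervals of the log2 fold change of -0.22 to 0.23 for STAT2 and -0.14 to 0.46 for IRF7.

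The ligand that trophectoderm makes did not pass the test. IFNT3 read 5.81, 10.2 and 12.6 CPM in control and 4.18 to 18.3 CPM, median 10.4, in low glucose, and IFNT2 read 1.60, 2.56 and 3.23 CPM against 0.427 to 4.75 CPM. Both ranges overlapped widely, with 95% intervals of the log2 fold change from -0.63 to 0.92 for IFNT3 and from -1.07 to 1.18 for IFNT2. Kallisto splits reads among near-identical copies, so values within the interferon tau, IFIT, MX and OAS families are uncertain. Of 19 tested genes of antigen presentation, 2 fell, namely TAPBP, the peptide loading factor tapasin, and PSMB8, a subunit of the immunoproteasome. TAPBP read 50.2, 53.2 and 44.0 CPM in control and 16.6 to 24.3 CPM in low glucose, and it changed by -1.27 on the log2 scale (SE 0.129, edgeR adjusted p = 0.000138). PSMB8 passed narrowly at -1.47 (SE 0.351, edgeR adjusted p = 0.0379) and did not pass when any 1 of the control libraries was left out (edgeR adjusted p = 0.0997, 0.182 and 0.119).

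**Figure D2:**
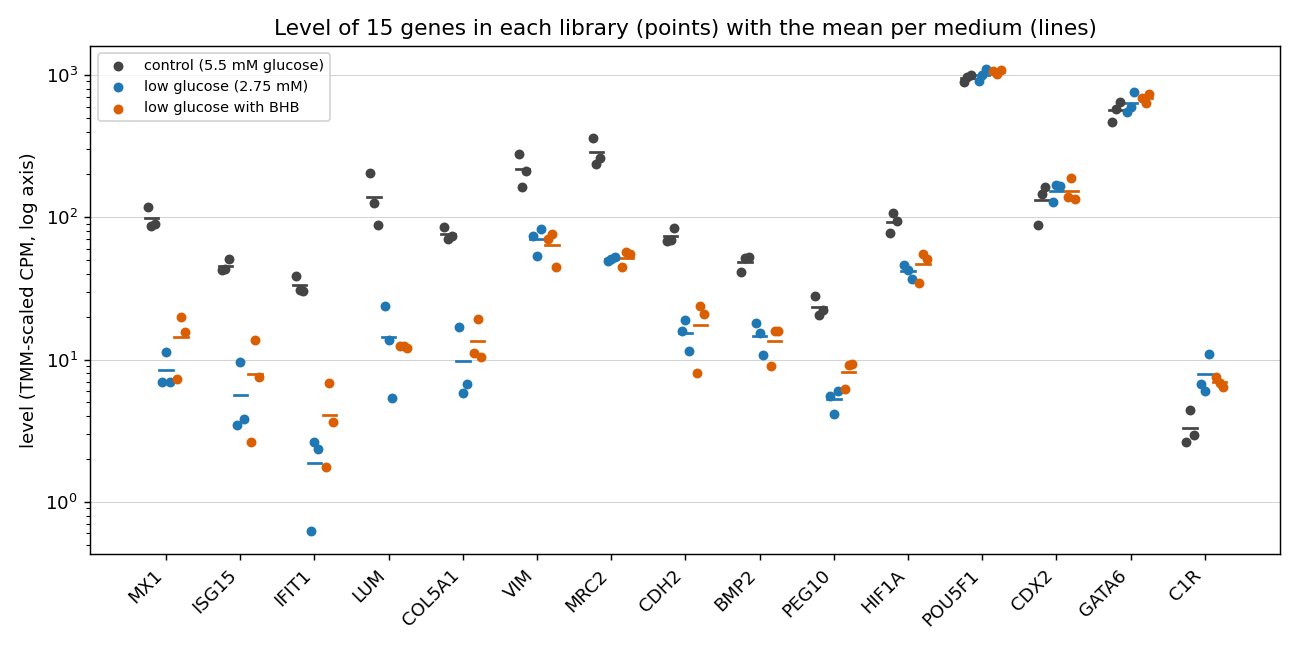
TMM-scaled CPM (log axis) of 15 genes in each of the 9 libraries, with 3 points per medium and a line at the mean of each medium. MX1, ISG15, IFIT1, LUM, COL5A1 and MRC2 are low in all 6 low glucose libraries, HIF1A less so, while POU5F1, CDX2 and GATA6 overlap between media and C1R is higher.

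The 3 lists of extracellular matrix genes also held many lower members. Among 20 tested collagen genes 8 fell, with a median log2 fold change of -1.03. Among 32 tested proteoglycans and glycoproteins 13 fell, with a median of -0.76, and among 32 tested enzymes and inhibitors that process matrix 12 fell, with a median of -1.08. No member of these 3 lists rose. With limma-voom the median of the processing list was -0.70. Without control replicate 1, 7 of the proteoglycans and glycoproteins were lower and their median was -0.51. With only replicates 2 and 3 of each medium, 5 collagen genes and 8 proteoglycans and glycoproteins were lower.

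The fibrillar collagens that passed were COL1A2, COL3A1, COL5A1, COL5A2 and COL11A1. COL5A1, which starts and limits the growth of collagen fibrils, read 86.0, 70.0 and 74.0 CPM in control and 5.83 to 19.3 CPM, median 10.7, in low glucose. The groups did not come near each other, and its log2 fold change was -2.71 (SE 0.299, edgeR adjusted p = 0.000205). COL3A1 changed by -2.04 (SE 0.355) and COL11A1 by -2.40 (SE 0.390). COL1A2 read 310, 161 and 163 CPM against 52.1 to 123 CPM, and its log2 fold change of -1.31 (edgeR adjusted p = 0.00768) became -0.93 without control replicate 1 (edgeR adjusted p = 0.0753). COL1A1, the other chain of type I collagen, did not pass, at 323, 106 and 101 CPM against 47.6 to 157 CPM.

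Of the basement membrane collagens COL4A5 fell, at -0.95 on the log2 scale (SE 0.228, edgeR adjusted p = 0.0379), and the main chains COL4A1 and COL4A2 did not pass. COL4A1 read 412, 423 and 387 CPM in control and 334 to 553 CPM, median 407, in low glucose. COL4A2 read 162, 190 and 180 CPM against 130 to 253 CPM. Both overlapped between groups, with 95% intervals of the log2 fold change of -0.26 to 0.37 for COL4A1 and -0.29 to 0.55 for COL4A2. FN1, the abundant adhesive glycoprotein fibronectin, read 4743, 5308 and 4748 CPM against 4227 to 6612 CPM and did not pass (log2 fold change 0.25, 95% interval -0.01 to 0.52).

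LUM and IGFBP7 led the list of proteoglycans and glycoproteins, of which 19 tested members did not pass. LUM, which encodes lumican, read 204, 125 and 88.0 CPM in control and 5.34 to 23.7 CPM, median 12.4, in low glucose. Its log2 fold change was -3.39 (SE 0.331, edgeR adjusted p = 0.000123), and its lowest control library was still above all 6 others. DCN, which encodes decorin, read 12.2, 7.11 and 13.8 CPM against 1.21 to 3.22 CPM (log2 fold change -2.33, SE 0.291). FBN1, the microfibril protein fibrillin, read 60.3, 24.1 and 29.4 CPM against 6.38 to 8.89 CPM (log2 fold change -2.29, SE 0.227). VCAN, the large proteoglycan versican that also fills the expanding cumulus, read 74.8, 76.4 and 73.4 CPM against 5.15 to 25.5 CPM, median 7.83, with low glucose replicate 1 the highest of the 6. THBS1 and THBS2, thrombospondins that link cells and matrix, changed by -2.51 (SE 0.328) and -2.77 (SE 0.296).

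Among matrix processing genes, of which 20 tested members did not pass, the smallest p belonged to SERPINH1. SERPINH1, the collagen chaperone HSP47, read 113, 97.1 and 111 CPM in control and 31.6 to 49.4 CPM, median 41.7, in low glucose (log2 fold change -1.37, SE 0.122, edgeR adjusted p = 9.73e-05). PLOD1 and PLOD2, which hydroxylate collagen lysines, changed by -1.54 (SE 0.198) and -2.01 (SE 0.286). BMP1, which trims procollagen, changed by -2.21 (SE 0.228). The plasminogen activator PLAT and the protease inhibitor SERPINE2 were both lower, at -2.49 (SE 0.363) and -0.70 (SE 0.125). MRC2, a receptor that takes up collagen fragments, had the smallest p of all genes. It read 360, 235 and 260 CPM in control and 44.6 to 56.7 CPM, median 51.6, in low glucose, so the 6 libraries were tightly grouped at a low level. Its log2 fold change was -2.47 (SE 0.124, edgeR adjusted p = 5.07e-07).

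**Figure D3:**
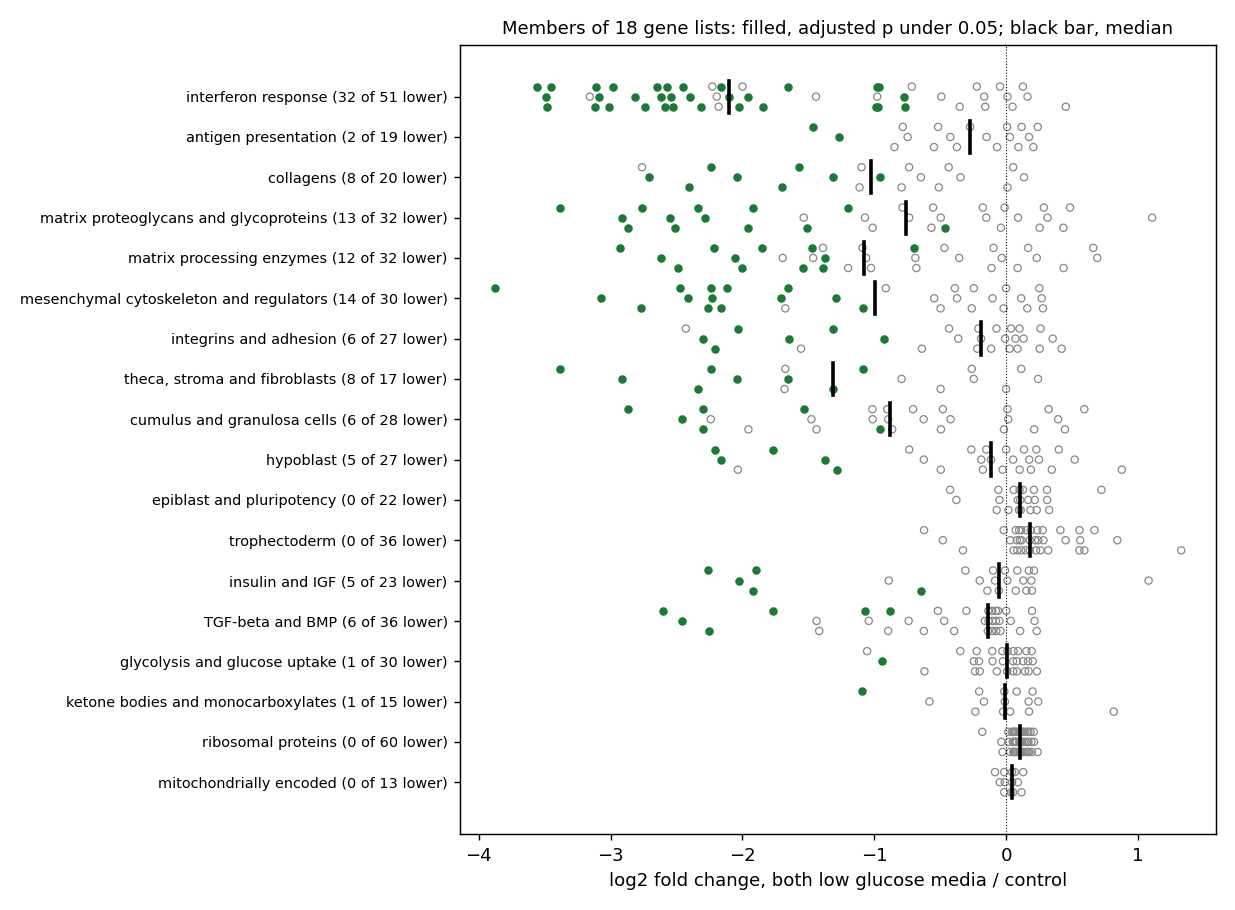
Log2 fold change of both low glucose media over control (horizontal axis) for the tested members of 18 gene lists, 1 point per gene, filled where the adjusted p was under 0.05, with a black bar at the median of each list. The interferon list lies farthest left at -2.10, the matrix, mesenchymal and stroma lists are spread from above 0 to below -2, and the epiblast and trophectoderm lists stand at 0.11 and 0.18.

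Regulators and filaments of mesenchymal cells were lower as well, 14 of 30 tested with 0 higher and a median log2 fold change of -0.999. The median was -0.72 without control replicate 1. VIM, the intermediate filament vimentin, read 278, 164 and 212 CPM in control and 44.3 to 83.0 CPM, median 71.7, in low glucose. All low glucose libraries were under the lowest control, and the log2 fold change was -1.71 (SE 0.189, edgeR adjusted p = 0.000214). CDH11 and CDH2, cadherins of mesenchymal cells, changed by -2.41 (SE 0.249) and -2.16 (SE 0.250). SNAI2, a repressor that drives the change from epithelium to mesenchyme, changed by -3.07 (SE 0.464), and ZEB2, another such repressor, was lower in both of its gene entries. PDLIM3, a protein of actin filaments, had the largest log2 fold change of the list, -3.88 (SE 0.525, edgeR adjusted p = 0.000782), and low glucose replicate 1, at 2.29 CPM, stood above the other 5 libraries at 0.282 to 0.513 CPM.

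Of 27 tested integrins and adhesion genes 6 fell, beside 3.01% of all tested genes. ITGAV, the integrin chain that binds vitronectin and latent TGF-beta, read 136, 93.5 and 132 CPM in control and 26.3 to 52.0 CPM, median 36.3, in low glucose (log2 fold change -1.65, SE 0.198). GJA1, the gap junction protein connexin 43, read 33.4, 35.7 and 48.0 CPM against 4.50 to 13.5 CPM (log2 fold change -2.21, SE 0.280). Neither overlapped between groups.

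Several of these genes are also markers of stroma and cumulus cells of the ovary. In pooled embryos, fewer cells of a type and less RNA per cell cannot be told apart. Of 17 tested markers of theca, stroma and fibroblasts 8 fell, namely LUM, DCN, PDGFRB, TAGLN, COL3A1, COL1A2, THY1 and POSTN, with a median log2 fold change of -1.31. Their summed level was 667 to 1328 CPM in control and 342 to 564 CPM in low glucose. Without control replicate 1, 5 were lower and the median was -0.93. FAP, TCF21 and OGN had too few counts to be tested. PDGFRA, which marks stroma and also the hypoblast, read 149, 154 and 129 CPM against 114 to 177 CPM and did not pass.

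Of 28 tested markers of cumulus and granulosa cells 6 fell, namely CD44, VCAN, NR5A1, NR5A2, INHBB and FST. The median was -0.88, and 21 of the 28 had a log2 fold change below 0. With RLE factors 5 members of the list were lower. FST passed only narrowly (edgeR adjusted p = 0.04997), and its groups overlapped. It read 19.2, 8.29 and 20.2 CPM in control and 0.279 to 8.46 CPM in low glucose. FOXL2, a transcription factor of granulosa cells, and AMH, a hormone they secrete, were at -1.01 and -1.02 on the log2 scale and did not pass (edgeR adjusted p = 0.238 and 0.634). The summed level of the cumulus and granulosa list overlapped, at 727 to 912 CPM in control and 556 to 1287 CPM in low glucose. NR5A1, the steroidogenic factor SF-1, read 7.14, 6.69 and 8.78 CPM in control and 0.865 to 2.89 CPM, median 1.22, in low glucose (log2 fold change -2.30, SE 0.323). CYP19A1, the aromatase that makes estradiol, read 17.1, 28.6 and 17.9 CPM against 18.4 to 27.9 CPM, and FSHR, the FSH receptor, read 3.55, 4.39 and 4.61 CPM against 3.32 to 5.67 CPM. Both overlapped between groups, with 95% intervals of the log2 fold change of -0.41 to 0.38 for CYP19A1 and -0.48 to 0.51 for FSHR. Leukocyte markers (15 tested), markers of red cells and endothelium (9 tested) and sperm markers (5 tested) had 0 called genes, and MS4A1, CDH5, EMCN and ODF1 had no counts in any library. Leukocyte markers summed to 27.0 to 29.0 CPM in control and 21.2 to 36.3 CPM in low glucose, markers of red cells and endothelium to 166 to 208 and 160 to 197 CPM, and sperm markers to 8.12 to 11.8 and 7.65 to 10.8 CPM. The part of stroma and cumulus markers in the matrix and mesenchymal results was not tested.

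**Figure D4:**
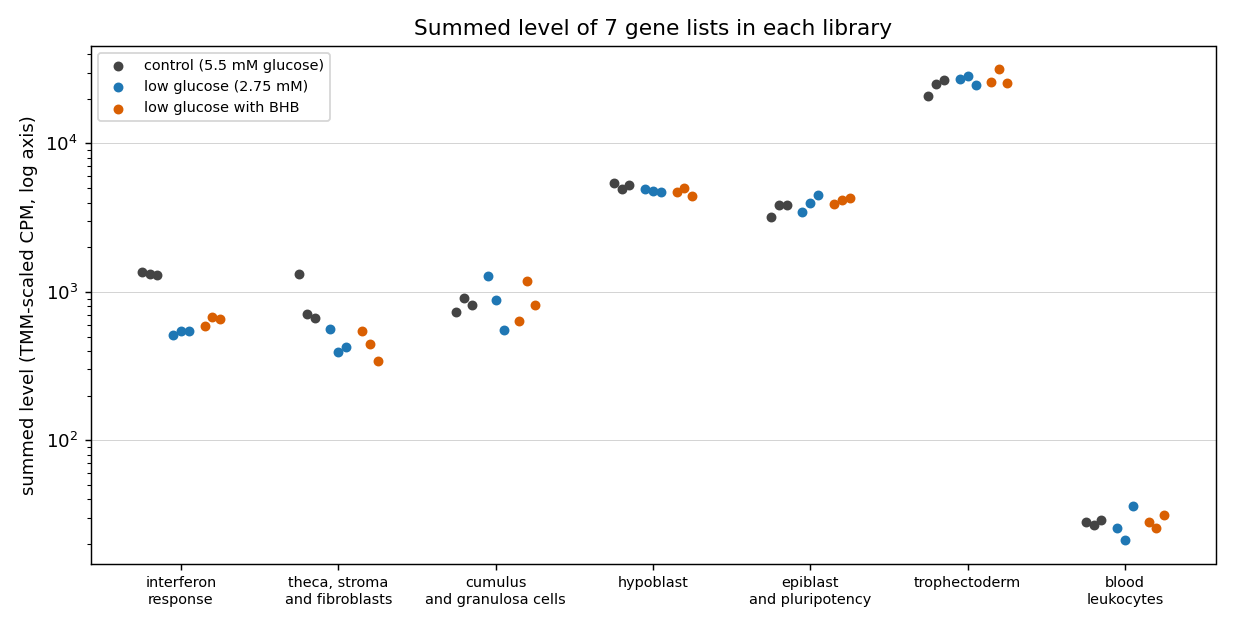
Summed TMM-scaled CPM (log axis) of 7 gene lists in each of the 9 libraries, coloured by medium. The interferon list and the stroma list lie lower in all 6 low glucose libraries than in all 3 controls, while the cumulus, hypoblast, epiblast, trophectoderm and leukocyte lists overlap.

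Markers of the epiblast and the trophectoderm did not pass the test. The labelled tissue was borne out by its markers, with POU5F1, GATA6, CDX2 and the keratins KRT8 and KRT18 present in every library. POU5F1, the pluripotency factor OCT4, read 888, 968 and 1007 CPM in control and 902 to 1101 CPM, median 1041, in low glucose. The groups overlapped, and the log2 fold change was 0.11 with a 95% interval of -0.08 to 0.30. NANOG (0.10, 95% interval -0.54 to 0.73), CDX2, the factor of trophectoderm (0.22, -0.15 to 0.60), and GATA3 (0.24, -0.03 to 0.50) did not pass either. Of 22 tested epiblast genes and 36 tested trophectoderm genes 0 were called, and their medians were 0.11 and 0.18.

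Hypoblast genes included both kinds. The lineage factors GATA6, at 467, 580 and 647 CPM in control and 550 to 758 CPM in low glucose, and SOX17, at 6.79, 17.5 and 20.8 CPM against 8.41 to 39.9 CPM, did not pass. Of 27 tested genes of the list 5 fell, beside 3.01% of all tested genes, with a median of -0.12. The 5 were SERPINH1, BMP2, CDH2, GJA1 and GATA4. GATA4 read 36.2, 40.0 and 48.7 CPM in control and 12.4 to 26.5 CPM, median 15.4, in low glucose. Its log2 fold change was -1.28 (SE 0.206, edgeR adjusted p = 0.00259), with no overlap. BMP2, a secreted signal of the BMP family, read 41.0, 51.4 and 52.2 CPM against 8.97 to 18.0 CPM, median 15.6 (log2 fold change -1.77, SE 0.188, edgeR adjusted p = 0.000174). With the replicate number as a block 8 hypoblast genes were lower, and without control replicate 1 the median was 0.02.

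Signalling lists held a few called members each and medians near 0. Over all tested genes 3.01% were lower. For TGF-beta and BMP 6 of 36 tested genes fell, or 5 with RLE factors, with a median of -0.14. They were the ligands BMP2 and TGFB1, the receptor BMPR1B, the binding proteins LTBP1 and FST, and the target ID3. BMPR1B read 11.7, 7.29 and 8.41 CPM in control and 0.873 to 2.42 CPM, median 1.45, in low glucose, without overlap, and changed by -2.60 (SE 0.303, edgeR adjusted p = 0.000311). For WNT 4 of 38 fell, or 2 without control replicate 1 or 3, with the receptor ROR2 at -2.64 (SE 0.371). For FGF 4 of 24 fell, or 2 without control replicate 1 or 3, with FGFR1 at -0.86 (SE 0.167). FGFR1 itself did not pass without control replicate 1 or 3 (edgeR adjusted p = 0.0527 and 0.106). FGF2, at -1.59 (edgeR adjusted p = 0.0119), did not pass without control replicate 2 (edgeR adjusted p = 0.151).

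For insulin and IGF 5 of 23 tested genes fell, beside 3.01% of all tested genes, or 3 without control replicate 1. The median was -0.06, and 0.01 without low glucose replicate 1. IGFBP7, which binds insulin-like growth factors, read 172, 131 and 207 CPM in control and 38.0 to 60.6 CPM, median 42.3, in low glucose. It was low in all 6 libraries, at -1.92 on the log2 scale (SE 0.155, edgeR adjusted p = 5.05e-05). IGFBP5, of the same family, read 232, 331 and 400 CPM against 49.0 to 142 CPM (log2 fold change -2.02, SE 0.302). FOXO1, a transcription factor held back by insulin, read 21.2, 8.39 and 14.4 CPM against 1.44 to 5.07 CPM (log2 fold change -2.26, SE 0.348). IGF2, the imprinted growth factor, changed by -1.90 (SE 0.396, edgeR adjusted p = 0.0161). Of 28 tested imprinted genes 4 fell, with IGF2 joined by PEG10 at -1.81 (SE 0.224), MAOA at -2.11 (SE 0.282) and SGCE at -2.13 (SE 0.352). PEG10, a placental gene of retroviral origin, read 28.0, 20.4 and 22.3 CPM in control and 4.17 to 9.24 CPM, median 6.15, in low glucose.

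Lists of genes that handle glucose and ketone bodies held few called members. Of 30 tested genes of glycolysis and glucose uptake 1 fell, a share close to the 3.01% over all tested genes, with a median of 0.01. That gene was PFKP, an isoform of the enzyme that commits glucose to glycolysis, at 17.5, 18.7 and 15.9 CPM in control and 7.19 to 12.0 CPM in low glucose (log2 fold change -0.94, SE 0.174, edgeR adjusted p = 0.00717). SLC2A1, the glucose transporter GLUT1, read 467, 562 and 554 CPM against 534 to 603 CPM (log2 fold change 0.08, 95% interval -0.11 to 0.27). TXNIP, whose transcription rises with glucose inside the cell, read 39.4, 18.1 and 24.7 CPM in control and 6.31 to 15.8 CPM, median 14.9, in low glucose. It lay lower in all 6 libraries but missed the threshold (log2 fold change -1.06, SE 0.270, edgeR adjusted p = 0.0559), and its adjusted p in edgeR was 0.536 without control replicate 1, where the log2 fold change was -0.70, and 0.0312 without control replicate 2, with a range of 0.00412 to 0.592 over all alternatives. Among 15 tested genes of ketone bodies and monocarboxylates SLC16A3, a lactate exporter, fell (log2 fold change -1.09, edgeR adjusted p = 0.0106), though not without control replicate 2 or 3 (edgeR adjusted p = 0.0907 and 0.0829). BDH1 and OXCT1, the mitochondrial enzymes that use BHB, were at -0.01 (95% interval -0.51 to 0.48) and -0.23 (95% interval -0.62 to 0.15).

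Among stress genes, HIF1A, the oxygen-sensitive transcription factor, read 78.0, 107 and 94.1 CPM in control and 34.6 to 55.2 CPM, median 44.4, in low glucose. It was lower in every low glucose library, at -1.07 (SE 0.147, edgeR adjusted p = 0.000853), while the other 20 tested genes of the hypoxia list did not pass. GSTA1, a glutathione transferase, read 16.9, 10.5 and 18.7 CPM against 0.831 to 3.27 CPM, median 1.42 (log2 fold change -3.22, SE 0.342, edgeR adjusted p = 0.000174), and near-identical copies may share its reads. SOD3 and GPX8 were the other lower genes among 41 tested antioxidant entries, and without control replicate 3 the count was 1. Lists with 0 called genes were nuclear oxidative phosphorylation (48 tested, median 0.06), mitochondrially encoded genes (13, 0.04), ribosomal proteins (60, 0.11), the unfolded protein response (20, 0.15), the amino acid stress response (25, 0.23), cholesterol (31, -0.01), DNA and histone methylation (27, 0.08), the cell cycle (32, 0.04) and maternal oocyte genes (19, -0.06, or 0.24 without control replicate 3). For mitochondrially encoded genes the median was 0.31 in low glucose and -0.35 with BHB. Their summed level was 46040 to 53032 CPM in control and 22859 to 83881 CPM in the 6 low glucose libraries. DNMT1, the maintenance DNA methyltransferase, read 35.5, 37.8 and 33.8 CPM against 29.3 to 39.8 CPM.

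Complement and acute phase genes had 2 lower members of 16 tested, ORM1 and C4A, or 1 without control replicate 1, and 1 higher, C1R. The Hippo list had 1 of 22, the receptor kinase AXL, and the apoptosis list 1 of 26, the TNF receptor TNFRSF1A. The shares of the Hippo and apoptosis lists are close to the 3.01% lower over all tested genes. That of the complement and acute phase list is above it.

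Some of the most lowered genes lie outside the lists of pathways and cell types. OLR1, a scavenger receptor for oxidised lipoprotein, read 19.6, 5.44 and 13.8 CPM in control and 0.0164 to 1.42 CPM, median 0.664, in low glucose (log2 fold change -4.23, SE 0.710, edgeR adjusted p = 0.00349). RUNX2, a transcription factor of bone and stroma, changed by -3.23 (SE 0.430) and HTRA1, a secreted serine protease, by -2.52 (SE 0.233). TSC22D1, a leucine zipper protein, had the next smallest p after MRC2. The entry that passed read 148, 98.2 and 106 CPM in control and 28.9 to 35.5 CPM, median 30.9, in low glucose, at -1.89 on the log2 scale (SE 0.124, edgeR adjusted p = 7.87e-06). A further entry of the same symbol did not pass, at 28.0, 17.1 and 18.4 CPM against 15.1 to 19.9 CPM. Of the acute phase list, ORM1, a plasma carrier protein, held 456 counts in the control libraries, most of them in replicate 1, and 12 in the 6 others. Its ratio of control to low glucose was 73.8 with an exact counting interval of 41.8 to 144, which covers counting error only. Its log2 fold change of -6.23 became -4.87 without control replicate 1, and it did not pass with limma-voom (adjusted p = 0.0948) or with only replicates 2 and 3 of each medium (edgeR adjusted p = 0.0895).

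Of the 13 lower genes with a mean of at least 100 CPM, the median log2 fold change was -1.15, and some of them are given here. LAPTM4B, a lysosomal membrane protein, read 542, 659 and 687 CPM in control and 311 to 457 CPM, median 412, in low glucose (log2 fold change -0.65, SE 0.116, edgeR adjusted p = 0.00568). It did not pass without control replicate 3 (edgeR adjusted p = 0.0620). MFGE8, a secreted protein that bridges cells, read 835, 738 and 1162 CPM against 518 to 716 CPM (log2 fold change -0.58, SE 0.135, edgeR adjusted p = 0.0328). Without control replicate 3 its log2 fold change was -0.35 (edgeR adjusted p = 0.276), and leaving out any of 5 further single libraries also ended the call. APP, the amyloid precursor protein, read 236, 191 and 157 CPM against 57.9 to 117 CPM (log2 fold change -1.15, SE 0.187).

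The 3 higher genes rose by 1.36- to 2.23-fold. C1R, the protease that opens the classical complement pathway, read 2.62, 4.42 and 2.93 CPM in control and 6.05 to 11.0 CPM, median 6.82, in low glucose. All 6 low glucose libraries were above all controls, at 1.16 on the log2 scale (SE 0.249, edgeR adjusted p = 0.0199). Without control replicate 1 or 3 it did not pass (edgeR adjusted p = 0.121 and 0.116). DUSP8, a phosphatase that turns off MAP kinases, read 59.4, 60.3 and 74.1 CPM against 81.7 to 98.9 CPM, median 85.2 (log2 fold change 0.45, SE 0.105, edgeR adjusted p = 0.0349). NFATC1, a transcription factor driven by calcium, read 5.95, 5.94 and 5.95 CPM against 7.78 to 11.7 CPM, median 10.0 (log2 fold change 0.72, SE 0.177, edgeR adjusted p = 0.0454). Neither kept its call in every single-library omission, with edgeR adjusted p reaching 0.204 for DUSP8 and 0.165 for NFATC1. Over all 17 alternatives DUSP8 lost its call in 8 and NFATC1 in 12. FOXJ1, the regulator of motile cilia, and CASZ1, a zinc finger factor, came next, with edgeR adjusted p = 0.0529 and 0.0540. FOXJ1 had 1 count in the control libraries and 108 in the others, a ratio of low glucose to control of 55.6 with an exact counting interval of 9.77 to 2217, which covers counting error only.

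Set side by side, each medium against the shared controls gave fewer calls, again nearly all lower. In low glucose 333 genes were lower (2.02%) and 1 higher (0.00607%), and with BHB 227 were lower (1.38%) and 1 higher (0.00607%), in edgeR at an adjusted p under 0.05. The 496 lower genes of the pooled comparison had a median log2 fold change of -1.89 in low glucose and -1.69 with BHB. MRC2 was at -2.49 (SE 0.165) in low glucose and -2.45 (SE 0.165) with BHB, LUM at -3.28 (SE 0.442) and -3.50 (SE 0.447), and MX1 at -3.55 (SE 0.334) and -2.78 (SE 0.322).

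The low glucose media were then compared with each other, with the controls kept in the fit but not in the difference tested. Over all tested genes 0 differed at an adjusted p under 0.05 in edgeR, and 270 (1.64%) had an unadjusted p under 0.05. With the replicate number as a block, which pairs libraries by number alone, 0 differed after adjustment and 340 had an unadjusted p under 0.05. By limma-voom 0 genes differed after adjustment, and by DESeq2 2 genes did, neither with a symbol in the annotation. Of the 499 genes called against control, 47 (9.42%) had such an unadjusted p, with the medium with BHB higher in 45 and lower in 2. The lower genes had a median log2 difference of 0.17 with BHB over low glucose, against 0.01 for all tested genes. FOXO1 stood at a log2 difference of 1.04 (SE 0.338, unadjusted p = 0.00979), PEG10 at 0.64 (SE 0.218, unadjusted p = 0.0119) and ZBP1, a sensor of Z-form nucleic acid, at 1.56 (SE 0.526, unadjusted p = 0.0119), all from edgeR and none past adjustment. For MX1 the difference was 0.77 (SE 0.309) and for MRC2 0.03 (SE 0.157).

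**Figure D5:**
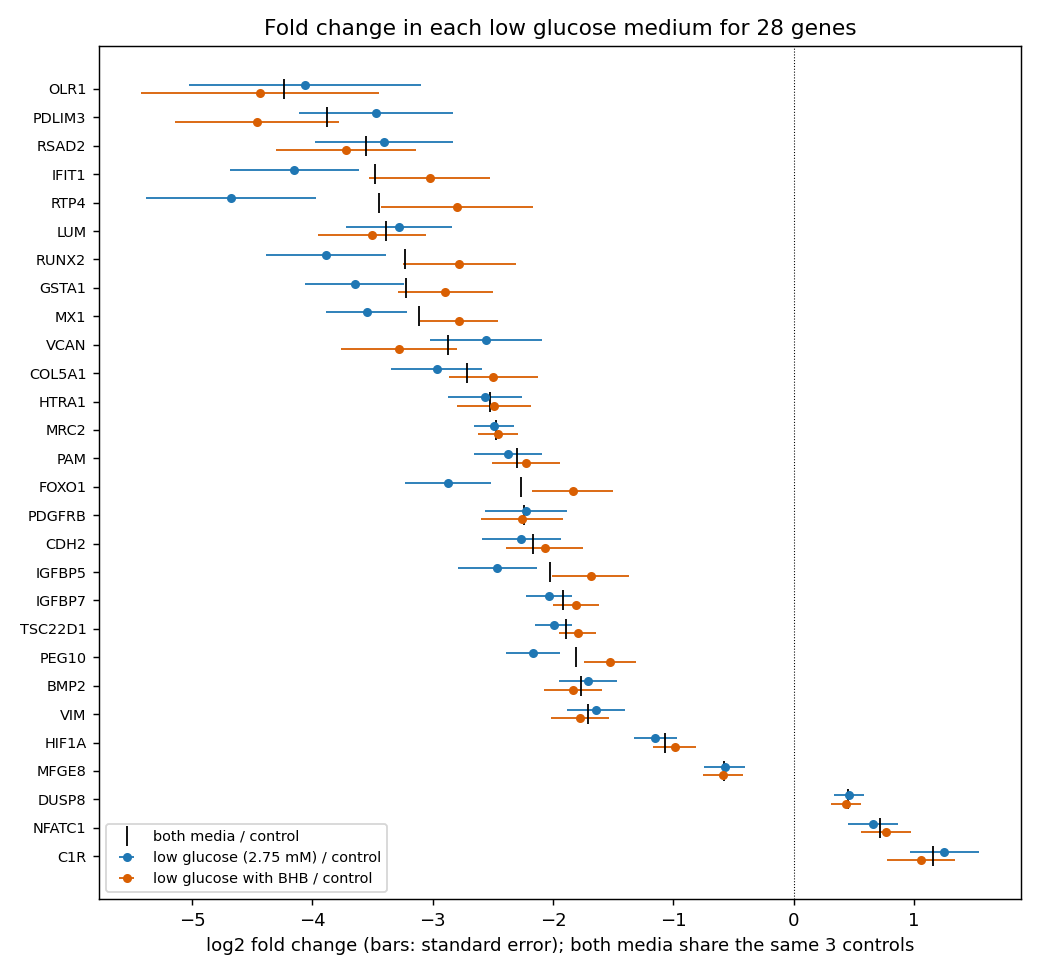
Log2 fold change over control with its standard error for 28 genes in low glucose medium (blue) and in low glucose medium with BHB (orange), with a black mark for both media together. Both points lie on the same side of 0 for every gene plotted, and both use the same 3 control libraries.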

How the data were processed

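RNA sequencing libraries of polyadenylated RNA were made per the labels' protocols from 9 pools of blastocysts, 3 per maturation medium, and groups were taken from the sample titles. The authors deposited 1 table of estimated counts per gene (19.2% of its values are not whole), and per the submitters' processing notes fastp, kallisto, DESeq2 and the build bosTau9 were used. The role and version of each are not given in the sources used. The table named 17706 genes, RefSeq (assembly ARS-UCD2.0, names only) named 323 more, and 4098 had none, among them 12 lower genes.

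Estimated counts were rounded to whole numbers. Genes were filtered with filterByExpr over the 3 media (minimum count 10, minimum total 15), scaled by TMM and fitted with 2 group means (edgeR 4.0.16, R 4.3.3), and tested by quasi-likelihood, two-sided, with Benjamini-Hochberg adjustment over all 16469 genes at 0.05. The biological coefficient of variation was 0.313. Fits with 3 group means gave each medium. Standard errors are the log2 fold change over the root of F, with 95% intervals. No replicates agreed within sampling noise (smallest chi-square per degree of freedom 38.1). On 3 simulated sets, 65.0% of 2-fold and 95.0% of 4-fold changes were recovered, with 6.25% of calls false. Each set changed 200 genes above 1 CPM, in both directions, with the spread taken from the same data. The real calls were nearly all lower and included genes under 1 CPM, so these rates may not hold for them.

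The comparison, the 36 gene lists and the rule for named genes were chosen with earlier results of these data known. The rule took, among called genes with a symbol, a shared direction and no overlap, the 10 largest changes with a mean of at least 1 CPM, the 10 smallest p and the 10 highest CPM per direction, the 3 leading members of each list, the 5 smallest p where fewer than 5 passed, and fixed genes of interest. Genes outside the rule were chosen after their values were seen, among them IFIH1, DHX58, ZBP1, IRF9, STAT2, IRF7, COL1A1, COL3A1, COL4A1, COL4A2, COL4A5, FN1, THBS1, THBS2, PLOD2, PLAT, SNAI2, ZEB2, NR5A1, PDGFRA, GATA4, IGF2, KRT8, KRT18, FOXL2, AMH and those of the closing observations. Alternatives were RLE factors, no filter, a mean count of at least 50, 3 group means, the replicate block, DESeq2 1.42.0, limma-voom (limma 3.58.1), each library left out, and only replicates 2 and 3. Figures used matplotlib 3.10.9. Some genes are not reported here. Between the low glucose media every same-numbered pair of libraries correlated over 0.1 in deviations from the group means (0.115, 0.243 and 0.102). Correlations of pairs with different numbers are not given here. The labels give the numbers but do not say whether a shared number marks a shared run.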

Additional observations from a re-analysis of the deposited data

Results flagged for a closer look

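Among the values of the named genes and library measures, 98 were checked for a single library of the 6 from low glucose media that stood away from the other 5, and 11 did. The cutoff gives about 1 in 20 only for independent, normally distributed values. The gene values were CPM not put on a log scale, and most genes were chosen from these same libraries. The 11 therefore cannot be set against that rate. In low glucose replicate 1, PDLIM3 was at 2.29 CPM against 0.282 to 0.513 CPM in the others, VCAN at 25.5 CPM against 5.15 to 9.55 CPM, CD44 at 2.63 CPM against 1.71 to 1.92 CPM, and SERPINE2 at 183 CPM against 133 to 151 CPM. In low glucose replicate 3, RSAD2 was at 1.53 CPM against 0.394 to 0.689 CPM and C1R at 11.0 CPM against 6.05 to 7.48 CPM. In low glucose with BHB replicate 1, GPX8 was at 1.69 CPM against 0.783 to 1.07 CPM. In low glucose with BHB replicate 2, IFI44L was at 2.06 CPM against 0.180 to 0.676 CPM and NR5A2 at 5.82 CPM against 3.25 to 3.92 CPM. In low glucose with BHB replicate 3, FGF2 was at 0.727 CPM against 1.26 to 1.56 CPM and CYP19A1 at 27.9 CPM against 18.4 to 20.7 CPM. PDLIM3, VCAN, CD44, SERPINE2, RSAD2, IFI44L, GPX8, FGF2 and NR5A2 stayed under the lowest control library at these values.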

How the results depend on the processing

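The 77 called genes named by the rule kept their sign in each of the 17 alternatives that tested them, and 56 of them also kept an adjusted p under 0.05 in each. The number of lower genes was 472 with 3 group means, 486 with RLE factors, 490 with no filter, 505 at a mean count of at least 50, 559 with limma-voom and 621 with DESeq2. It ranged from 301 to 492 when 1 library was left out, with 306 to 498 genes in a shared direction, and the lowest value came without control replicate 3. With only replicates 2 and 3 of each medium, 298 genes were lower, 0 higher and 298 in a shared direction, fewer libraries being part of that setting. The number of higher genes was 1 with 3 group means, 30 with DESeq2, 10 with the replicate number as a block, and 0 to 6 with 1 library left out. The cause was not tested. In the block fit 545 genes were lower. Between control and low glucose libraries of the same number, deviations from the group means correlated at 0.184, 0.0713 and 0.0583 for replicates 1, 2 and 3. Of 9 libraries, 5 correlated best with their own number. The labels do not say whether a number marks a shared run, so the block rests on the number alone. In settings added after the data were seen, genes different between these media numbered 0 with the block, 0 in each omission of 1 library, and 2 with DESeq2. Of genes under 1 CPM 0.794% were lower, and the part of depth in this was not tested. At an unadjusted p under 0.05, edgeR gave 1155 lower and 364 higher genes, and 0 genes in any alternative were called with opposite signs in the low glucose media.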

Other observations

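Gene groups outside the lists of the report also held lower members, and these groups were chosen after their values were seen, so their counts describe and do not test. Of 19 tested genes of retinoid uptake and signalling 4 fell, with a median log2 fold change of -0.25. STRA6, the membrane receptor for retinol carried by RBP4, read 64.8, 41.9 and 55.4 CPM in control and 4.15 to 17.9 CPM, median 10.6, in low glucose (log2 fold change -2.41, SE 0.320, edgeR adjusted p = 0.000698). CRABP2, which carries retinoic acid to the nucleus, read 43.2, 48.1 and 51.9 CPM against 3.17 to 16.2 CPM. Neither overlapped between groups, and RBP4 itself changed by -1.54 (SE 0.241).

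Of 23 tested cytokine receptors and STAT genes 7 fell. IFNAR2, a chain of the type I interferon receptor, read 2.47, 2.51 and 2.01 CPM in control and 0.230 to 0.458 CPM, median 0.331, in low glucose (log2 fold change -2.77, SE 0.365, edgeR adjusted p = 0.000664). IFNGR2, a chain of the interferon gamma receptor, changed by -2.13 (SE 0.290, edgeR adjusted p = 0.000794). Their partner chains IFNAR1, at -0.02 (95% interval -0.37 to 0.32), and IFNGR1, at 0.24 (95% interval -0.20 to 0.68), did not pass. Of 15 tested genes of secretory granules and peptide processing 7 fell, with a median of -1.28. PAM, the enzyme that amidates peptide hormones, read 93.2, 69.0 and 102 CPM against 9.69 to 23.6 CPM, median 18.8 (log2 fold change -2.30, SE 0.218, edgeR adjusted p = 0.000123), and VGF, a granule protein, changed by -2.22 (SE 0.284).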
